A study of Mus musculus with 10 samples.

Results

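GSK126-treated MC3T3 cells on day 6 of osteogenic culture were set against vehicle-treated cells on day 10, to ask how far 6-day treated cells resembled older untreated ones. The comparison used 2 of the 10 libraries of the series, 1 on each side, and all genes of the deposited count table. Of 23358 rows, 11976 reached 1 CPM (counts scaled to a common library total) in at least 1 of the 2 libraries. Both libraries are defined by their labelled treatment and day.

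MC3T3 is a mouse pre-osteoblast line from calvaria, and no genetic change separated the groups. All cultures were kept in osteogenic medium, which supplies ascorbic acid for collagen synthesis and beta glycerol phosphate as a phosphate source. The treated cells received 5 µM GSK126, a small-molecule inhibitor of the histone methyltransferase EZH2, at the start and again on day 3, and the vehicle cells received vehicle at the same times. Compound and vehicle were both taken away on day 6. The labels do not say whether the day 6 RNA was taken before or after that change, and the vehicle day 10 cells had spent the days since then in medium with neither. Treatment, day and the days without compound therefore differ together between the 2 libraries and cannot be told apart here. Vehicle and GSK126 libraries of days 3, 6 and 10 give the neighbouring values, and H3K27me3 chromatin immunoprecipitation 24 hours after the first dose gives a second readout.

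Osteoblasts first divide, then leave the cell cycle, lay down a collagen matrix and finally make the proteins that mineralize it. Osteocalcin, bone sialoprotein and the matrix vesicle enzymes belong to that last stage, while small leucine-rich proteoglycans such as lumican and decorin mark connective tissue matrix more widely. EZH2 is the catalytic subunit of Polycomb repressive complex 2, which places the repressive mark H3K27me3 on genes of other lineages and later stages.

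The libraries held 101690602 counts in GSK126 day 6 and 97291878 in vehicle day 10. The 6 RNA libraries ranged from 97291878 to 111537936. Rn45s, the ribosomal RNA precursor, took 5.61% and 7.24% of the counts on the 2 sides. Levels below are CPM scaled by trimmed mean of M values (TMM), and differences are log2 ratios of GSK126 day 6 to vehicle day 10 with a prior count of 2. Intervals in brackets are exact binomial 95% intervals on sequenced fragments, and they cover counting error only. With 1 library a side there was no replicate check and no test was made, so the words higher and lower describe these 2 libraries. The pan-cell reference list (Actb, Gapdh, Hprt, Tbp and similar) stayed within 2-fold for all 8 members, with a median log2 ratio of -0.18.

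Treated day 6 cells were not, across all genes, closer to vehicle day 10 than untreated cells of the same day were. Vehicle day 6 differed from vehicle day 10 by 2-fold or more at 409 genes, which is 3.46% of the genes compared. GSK126 day 6 differed at 1031 genes, or 8.61%, and the median absolute log2 ratio was 0.283 against 0.248 for vehicle day 6. By that median GSK126 day 10 was nearest, at 0.201. GSK126 day 6 was 2-fold or more higher at 537 genes (4.48%) and lower at 494 genes (4.12%). The other distances from vehicle day 10 were 657 genes for GSK126 day 10, 1110 for vehicle day 3 and 1160 for GSK126 day 3. All 5 distances share the vehicle day 10 library. From vehicle day 6, the library of its own day, GSK126 day 6 differed at 747 genes, with 491 higher (4.13%) and 256 lower (2.15%).

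**Figure D1:**
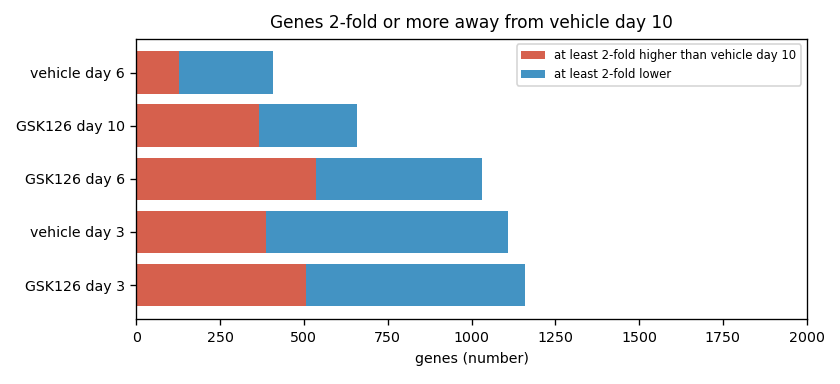
Number of genes at least 2-fold higher (red) or lower (blue) than vehicle day 10 in each of the other 5 RNA libraries, 1 library each, genes with at least 1 CPM in either library. Vehicle day 6 has the fewest with 409, and GSK126 day 6 has 1031.

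Several bone matrix and mineralization genes stood beyond vehicle day 10 in treated day 6 cells. Of 20 listed genes, all past the CPM minimum, 8 were 2-fold or more higher, 1 was lower and 11 lay within 2-fold, with a median log2 ratio of 0.75 against -0.02 for all genes. Vehicle day 6 cells had a median of -0.34 for the same list. In GSK126 day 6 the level of 13 of the 20 lay above all 3 vehicle libraries, where 27.2% of all genes did so, and 2 lay below all 3.

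Osteocalcin (Bglap, mm10 chr3:88383495-88384464), a late secreted protein of mineralizing osteoblasts, stood at 0.695, 3.59 and 22.0 CPM in vehicle on days 3, 6 and 10. GSK126 day 6 held 76.5 CPM, more than any vehicle library, and GSK126 day 10 held 197. Its log2 ratio was 1.80 (1.701 to 1.899). Bglap2, a near-identical copy whose reads may not be separable from those of Bglap, stood at 30.7 CPM against 9.93, a log2 ratio of 1.63 (1.48 to 1.78). Ifitm5, an osteoblast membrane protein of the mineralizing stage, had 51.2 CPM in GSK126 day 6 against 13.4 in vehicle day 10 and 4.17 in vehicle day 6. These 3 genes were more than 2-fold higher on vehicle day 10 than on vehicle day 6, and treated day 6 cells already lay more than 2-fold past that later level.

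Smpd3, a neutral sphingomyelinase needed for skeletal mineralization, differed most in the list. Its level was 31.6, 55.3 and 66.4 CPM in vehicle on days 3, 6 and 10, and 410 CPM in GSK126 day 6, a log2 ratio of 2.63 (2.57 to 2.68). Unlike osteocalcin it varied little between vehicle days 6 and 10. Phospho1, the phosphatase of matrix vesicles, had 76.1 CPM against 19.4, a log2 ratio of 1.97. Bone sialoprotein (Ibsp) had 1968 CPM against 547, a log2 ratio of 1.85, and the authors' RPKM, which divides by coding length, was 790 against 223. Dmp1, a matrix protein of late osteoblasts and osteocytes, had 18.7 CPM against 6.82, and vehicle day 6 held 11.4. Enpp1, which makes the mineralization inhibitor pyrophosphate, was low at 2.40 CPM against 0.393, with a wide interval for its log2 ratio of 2.55 (1.903 to 3.391). It passed the CPM minimum only through GSK126 day 6.

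Other members of the same list had reached vehicle day 10 or fell short of it. Osteopontin (Spp1), an acidic matrix protein, stood at 318 CPM in vehicle day 6, 941 in GSK126 day 6 and 1228 in vehicle day 10, so that the treated cells were close to the later level. Osteonectin (Sparc), a collagen-binding glycoprotein, was at 6722, 11531 and 9722 CPM in that order. Osteomodulin (Omd), a leucine-rich keratan sulfate proteoglycan of bone, lay between its 2 vehicle levels at 261 CPM, against 166 and 400. The collagenase Mmp13 lagged: it had 48.3 CPM in GSK126 day 6 against 150 in vehicle day 10, with 22.0 in vehicle day 6, a log2 ratio of -1.63 (-1.70 to -1.57). Matrix Gla protein (Mgp), an inhibitor of mineralization, had 278 CPM against 506 and lay below all 3 vehicle libraries. The order of treated cells relative to vehicle day 10 was therefore gene by gene, with Smpd3, Ifitm5 and osteocalcin beyond it and Mmp13 behind.

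Osteoblast transcription factors differed less. Of 12 listed factors 3 were 2-fold or more higher, none was lower and the median log2 ratio was 0.55, while vehicle day 6 had -0.02. Mef2c, a MADS-box factor of bone and muscle, had 204 CPM in GSK126 day 6 against 61.5 in vehicle day 10 and 61.9 in vehicle day 6, a log2 ratio of 1.73. Tbx2 had 30.1 CPM against 11.5, a log2 ratio of 1.39. Atf4, a factor for both osteoblast maturation and the amino acid response, had 394 CPM against 130, a log2 ratio of 1.60. Sp7, the osteoblast commitment factor osterix, had 241 CPM against 145, and Runx2, which acts before it, had 335 against 237, with log2 ratios of 0.73 and 0.50. Both levels lay above every vehicle library by less than 2-fold. Twist1 was level, with a log2 ratio of -0.12.

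**Figure D2:**
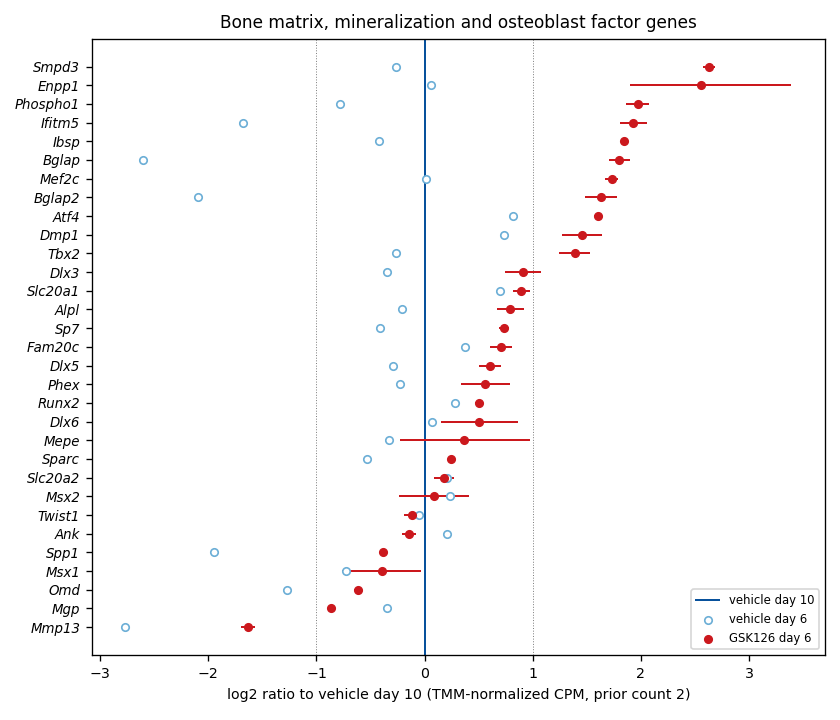
Log2 ratio to vehicle day 10 for bone matrix, mineralization and osteoblast transcription factor genes in GSK126 day 6 (red, with counting intervals) and vehicle day 6 (open blue), 1 library each, dotted lines at 2-fold. Most red points lie to the right of vehicle day 10, and Mmp13 lies to the left at -1.63 with vehicle day 6 further left.

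Receptors and coupling factors included the gene with the highest ratio in the comparison. Ostn, which encodes osteocrin, a secreted bone and muscle peptide that binds the natriuretic clearance receptor (mm10 chr16:27307641-27351209), had no count in vehicle day 10 or vehicle day 3. It held 0.117 CPM in vehicle day 6, 41.6 in GSK126 day 6 and 9.68 in GSK126 day 10. Against a floor of 3 fragments in the vehicle day 10 library it was at least 670-fold higher. Osteoprotegerin (Tnfrsf11b), the decoy receptor for RANKL, had 491 CPM in GSK126 day 6 against 164, and the parathyroid hormone receptor Pth1r had 462 against 184. The clearance receptor Npr3 went the other way, with 17.1 CPM against 40.6 and a log2 ratio of -1.25 (-1.37 to -1.13). Of 8 members past the minimum, 3 were higher and 1 was lower, and Ostn passed it only through GSK126 day 6. RANKL (Tnfsf11) and Bmp2 were below the minimum on both sides. Among 8 osteocyte genes past the minimum only Dmp1 and Dkk1 were higher, with Dkk1 past it only through GSK126 day 6. None was lower, and Sost and Fgf23 stayed below the minimum.

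Cartilage genes were split between higher and level. Chondrocytes make collagens II, IX and XI, and hypertrophic chondrocytes add collagen X. Col9a1, a chain of collagen IX, had 7.65 CPM in GSK126 day 6 and 3 fragments (6 counts) in vehicle day 10, a log2 ratio of 6.56 (5.39 to 9.23). Col2a1 had 245 CPM against 58.8 and a log2 ratio of 2.06, but its vehicle level on day 3 was 207 and its GSK126 level on day 3 was 559. Col11a2 had 142 CPM against 54.0, and Hapln1, a link protein, had 22.4 against 6.84. Matn1 was at 1.43 CPM against 0.228. Collagen X (Col10a1) was lower, with 0.302 CPM against 1.59 and a log2 ratio of -2.33 (-3.30 to -1.59). Sox9, the chondrocyte master factor, was at 30.1 CPM against 24.4. In all, 5 of 11 members past the minimum were higher, 1 was lower, and Acan, Ihh, Chad, Col9a2 and Col9a3 stayed below it. Col9a1 and Matn1 passed it only through GSK126 day 6, and Col10a1 only through vehicle day 10.

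Growth genes divided into a replication group and a mitosis group that did not share a course in vehicle from day 6 to day 10. Both groups were lower in GSK126 day 6 than in vehicle day 6, with median log2 ratios of -0.60 for replication and -0.99 for mitosis. Of 26 DNA replication genes, 18 were 2-fold or more lower in GSK126 day 6 than in vehicle day 10, none was higher, and the median log2 ratio was -1.26. The level in GSK126 day 6 was below all 3 vehicle libraries for 26 of 26, where 28.9% of all genes were below all 3. Vehicle itself did not approach day 10 from one side: the median relative to vehicle day 10 was 0.09 on day 3 and -0.63 on day 6. Treated day 6 cells were thus placed on the far side of vehicle day 6, away from vehicle day 10, and GSK126 day 10 was above vehicle day 10 with a median of 0.73. In bulk RNA, fewer replicating cells and less RNA per cell cannot be told apart.

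Mcm6, a subunit of the replicative helicase, had 192, 121 and 216 CPM in vehicle on days 3, 6 and 10. GSK126 day 6 had 71.8 CPM, the lowest of the 6 libraries, and GSK126 day 10 had 337, the highest. Its log2 ratio was -1.59 (-1.64 to -1.53). Uhrf1, which brings maintenance DNA methylation to replicated DNA, had 55.6 CPM against 145, a log2 ratio of -1.38. Cyclin E2 (Ccne2), which drives entry into S phase, had the largest difference of the list with 10.8 CPM against 43.8, a log2 ratio of -2.01. The clamp loader subunit Rfc4 had the smallest, with 13.0 against 22.1 and a log2 ratio of -0.76. Cdc6, Gins2 and Mcm3 lay between -1.69 and -1.59.

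Promoters of replication genes often carry sites for E2F factors, which switch on S phase genes. The letters TTTCGCGC and TTTGGCGC were searched on both strands in the 250 bases before each RefSeq gene start (GRCm38.p6). They occurred in 5 of 20 replication genes with an entry, or 25%, in 1 of 20 mitosis genes, and in 137 of the 8603 genes past the minimum with an entry, or 1.59%. The Mcm6 and Uhrf1 promoters are shown because both genes differed by more than 2-fold and hold the letters, with matches on either strand in capitals. Mcm6 (chr1:128359706-128359955, minus strand) has its furthest match 110 bases before the start, where matches on opposite strands overlap, and its nearest 47 bases before. Uhrf1 (chr17:56304063-56304312, plus strand) has 1 match 185 bases before the start shown. RefSeq gives Uhrf1 more than 1 start, and the 250 bases before the first listed, at chr17:56303337, hold no match. A match is a description of the letters and not a bound site.
Mcm6: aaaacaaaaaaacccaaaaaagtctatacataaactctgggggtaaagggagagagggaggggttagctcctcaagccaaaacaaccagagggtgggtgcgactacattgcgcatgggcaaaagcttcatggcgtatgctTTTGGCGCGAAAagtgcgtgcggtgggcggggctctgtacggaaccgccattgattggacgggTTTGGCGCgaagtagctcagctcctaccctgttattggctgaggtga
Uhrf1: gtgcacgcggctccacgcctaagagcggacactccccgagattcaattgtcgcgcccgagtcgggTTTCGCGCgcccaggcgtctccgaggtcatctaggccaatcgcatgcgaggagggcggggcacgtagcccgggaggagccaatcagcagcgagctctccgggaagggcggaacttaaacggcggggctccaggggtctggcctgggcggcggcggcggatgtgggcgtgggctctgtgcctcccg

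Mitosis genes were mostly within 2-fold of vehicle day 10. Of 25 listed genes 24 lay within 2-fold, 1 was lower and none was higher. The median log2 ratio was -0.33, where vehicle day 3 had 1.61 and vehicle day 6 had 0.76, so vehicle moved down to day 10. In GSK126 day 6, 15 of the 25 were below all 3 vehicle libraries, as were 28.9% of all genes. Cyclin B2 (Ccnb2) had 42.5, 25.7 and 12.1 CPM in vehicle on days 3, 6 and 10 and 12.2 in GSK126 day 6. Tpx2, a spindle assembly factor, had 47.0 CPM in GSK126 day 6 against 46.8 in vehicle day 10 and 97.8 in vehicle day 6. Cyclin B1 (Ccnb1) and Cdc20, which act at entry to and exit from mitosis, were still slightly above vehicle day 10, with log2 ratios of 0.43 and 0.41. Cdk1, the mitotic kinase, was the 1 gene past 2-fold, with 45.9 CPM against 93.7. Mki67, the proliferation antigen, had 121 CPM against 146 in vehicle day 10 and 294 in vehicle day 6. By day 10 the GSK126 library was above vehicle in this list too, with a median of 0.86.

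**Figure D3:**
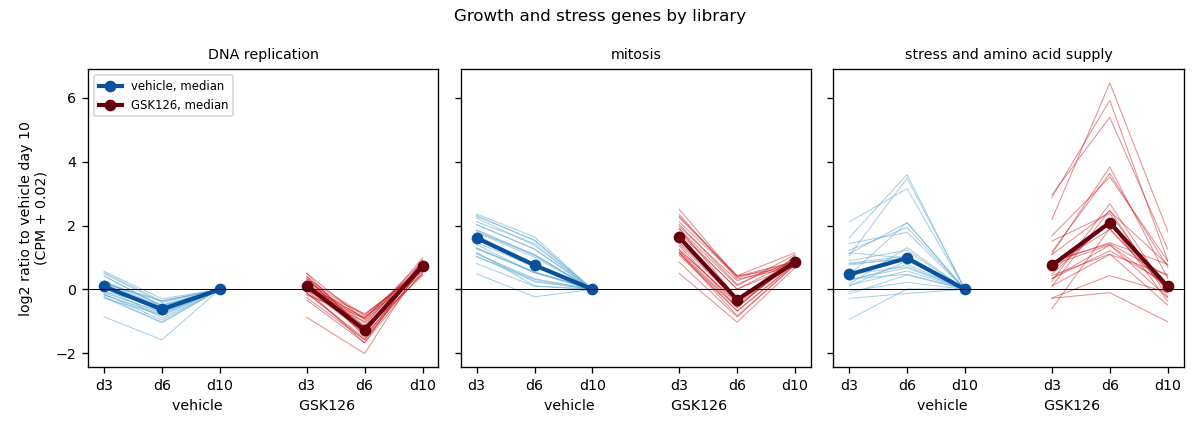
Log2 ratio to vehicle day 10 of each member (thin lines) and the list median (thick lines) for DNA replication, mitosis, and stress and amino acid supply genes on days 3, 6 and 10, vehicle in blue and GSK126 in red, 1 library per point. Replication genes have their minimum in GSK126 day 6 at a median of -1.26, mitosis genes have a median of -0.33 there, and stress genes have their maximum at 2.09.

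Inhibitors of growth gave no common direction. Of 11 cell cycle inhibitors and growth arrest genes past the minimum 1 was higher, 1 lower and 9 within 2-fold. Cdkn1a, the inhibitor p21, had 527 CPM in GSK126 day 6 against 269, a log2 ratio of 0.97, and was above all 3 vehicle libraries. Btg2, an antiproliferative gene that also responds early to serum, had 65.6 CPM against 30.1. Gas1, a membrane protein named for growth arrest, had 36.2 against 78.8. All 12 insulin-like growth factor genes past the minimum were within 2-fold of vehicle day 10. Igf2 stood at 8.56 CPM in vehicle day 6, 26.4 in GSK126 day 6 and 44.1 in vehicle day 10. Igfbp6, a binding protein with preference for IGF2, followed the same order with 11.7, 25.6 and 40.7 CPM. Both lay between the 2 vehicle days.

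Stromal matrix and fibroblast genes were mostly below vehicle day 10. Of 27 members past the minimum, 10 were 2-fold or more lower, 4 were higher and 13 lay within 2-fold, with a median log2 ratio of -0.52 against -0.17 for vehicle day 6. In GSK126 day 6, 14 of the 27 were below all 3 vehicle libraries, where 28.9% of all genes were. Another 6 were above all 3, which is no more than the 27.2% of all genes.

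Lumican (Lum), a small leucine-rich proteoglycan that shapes collagen fibrils (mm10 chr10:97565501-97572703), had 264, 1179 and 2349 CPM in vehicle on days 3, 6 and 10. It had 744 CPM in GSK126 day 6, short of both later vehicle days, and the log2 ratio was -1.66 (-1.68 to -1.64). Asporin (Aspn), a relative that can bind collagen and TGF-beta, had 651 CPM against 1947, and decorin (Dcn) had 303 against 695. Mimecan (Ogn) had 483 CPM against 1284. These 3 were lower in GSK126 day 6 than in any vehicle library. Of the same family, fibromodulin (Fmod) and biglycan (Bgn) were level, with log2 ratios of -0.10 and -0.12.

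Cell surface markers of stromal cells were also lower. Pdgfra, a receptor for platelet-derived growth factor, had 49.4 CPM in GSK126 day 6 against 114. Cd34 had 27.9 against 71.2 and Scara5, a scavenger receptor, had 53.1 against 119. Ly6a (Sca-1), which has close paralogs that could share reads, had 4.49 CPM against 29.4 and a log2 ratio of -2.71, while vehicle day 6 had 5.73. Vehicle days 6 and 10 were alike for Pdgfra, Cd34 and Scara5, with log2 differences from -0.02 to 0.21, so for these genes treated cells were not on the vehicle course. Mfap5, a microfibril protein, had 13.6 CPM against 47.2.

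Some matrix genes of the same list were beyond vehicle day 10. Elastin (Eln) had 0.122, 2.03 and 6.84 CPM in vehicle on days 3, 6 and 10 and 28.4 in GSK126 day 6, a log2 ratio of 2.05 (1.88 to 2.23). Tenascin C (Tnc), a glycoprotein of remodelling matrix, had 1680 CPM against 547, and the chemokine Cxcl12 had 86.8 against 29.8. Mfap4 had 15.3 against 7.32. Periostin (Postn) and fibrillin 1 (Fbn1) were within 2-fold but below all 3 vehicle libraries, at 1134 CPM against 2037 and 251 against 360.5.

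**Figure D4:**
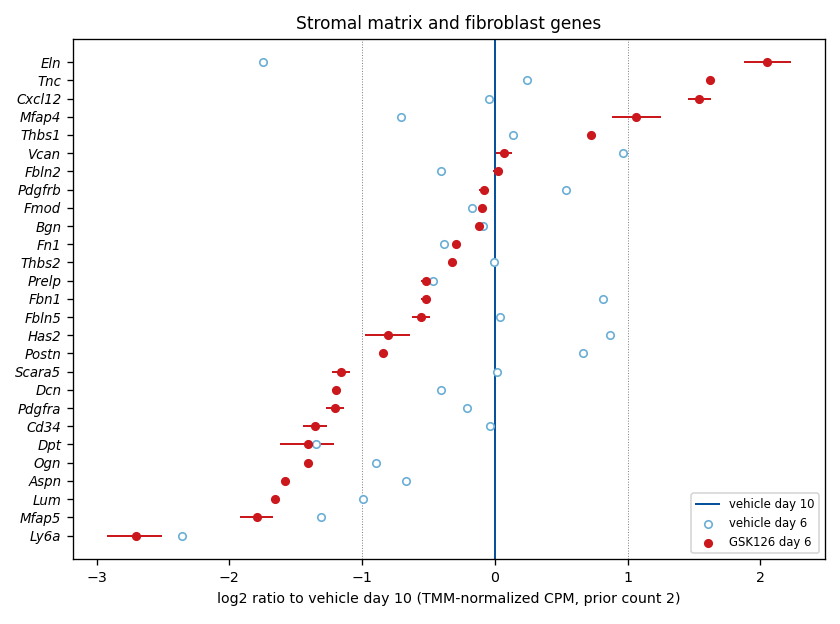
Log2 ratio to vehicle day 10 for the stromal matrix and fibroblast genes in GSK126 day 6 (red, with counting intervals) and vehicle day 6 (open blue), 1 library each, dotted lines at 2-fold. Elastin is furthest right at 2.05 and Ly6a furthest left at -2.71.

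The fibrillar collagens were near vehicle day 10. Of 21 collagen and crosslinking genes past the minimum 19 lay within 2-fold and 2 were higher, with a median log2 ratio of 0.12. Col1a1 had 36138 CPM against 23763 and Col1a2 had 37234 against 29827, both above every vehicle library by less than 2-fold. Serpinh1, the collagen chaperone HSP47, had 2254 CPM against 1039, and the crosslinking enzyme Loxl4 had 210 against 95.4. Col3a1 and the collagen VI chains Col6a1, Col6a2 and Col6a3 had log2 ratios between -0.25 and -0.15. Smooth muscle genes were within 2-fold for 8 of 8, with a median of -0.51, and Acta2 had 624 CPM against 907.

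Genes that move in vehicle between days 6 and 10 show where treated cells stood on that course. Vehicle day 10 was 2-fold or more higher than vehicle day 6 at 283 genes (2.39%) and lower at 126 (1.06%). Among the 283, GSK126 day 6 was 2-fold or more past vehicle day 10 at 24 genes (8.48%). It was level, meaning within 2-fold of day 10 and 2-fold from vehicle day 6, at 41 (14.5%). It was within 2-fold of both days at 88 (31.1%) and 2-fold or more behind at 130 (45.9%). Among the 126 genes that went lower, 4 were past, 35 level, 35 between and 52 behind (41.3%). Of those 126 genes, 16 stood 2-fold or more beyond vehicle day 6 on the side away from day 10, as did 7 of the 283. Vehicle day 10 served both to choose these genes and as one side of the comparison. Chosen by vehicle day 3 to day 6, which uses neither library, 219 genes went higher, and 65 of them (29.7%) were past day 10 and 36 (16.4%) behind. Vehicle need not keep rising to day 10 in these genes, so past also counts genes that fell back. Atf3, with 2.57, 8.09 and 1.88 CPM in vehicle on days 3, 6 and 10, is such a gene. The 2 choices are therefore not like for like.

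**Figure D5:**
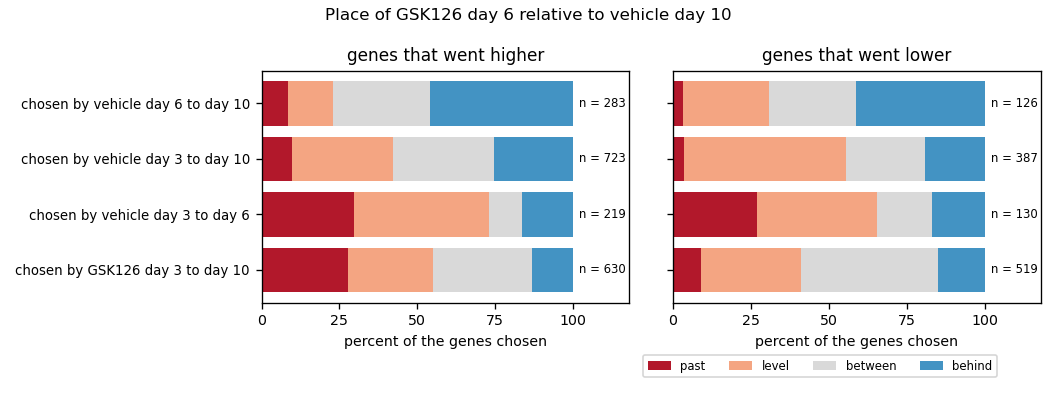
Percent of genes for which GSK126 day 6 was past (2-fold or more beyond vehicle day 10 in the direction of the move), level (within 2-fold of day 10 and at least 2-fold from the first library of the pair in that direction), between (the others within 2-fold of day 10) or behind (2-fold or more short of day 10), for genes at least 2-fold apart in the pair of libraries named at the left. The share behind is 45.9% for genes higher on vehicle day 10 than day 6 and 16.4% for genes higher on vehicle day 6 than day 3.

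Beyond the listed genes, the furthest past vehicle day 10 among genes moving up were Avil, Slc8a3, Cd200 and Prss35, followed by elastin and Ifitm5. Avil, the actin-binding protein advillin (mm10 chr10:127000709-127020994), had 2.21, 5.56 and 14.9 CPM in vehicle on days 3, 6 and 10 and 121 in GSK126 day 6, a log2 ratio of 3.02 (2.91 to 3.13). Slc8a3, a sodium-calcium exchanger, had 60.9 CPM against 8.995, and the membrane glycoprotein Cd200 had 49.4 against 11.4. Prss35, a secreted protein related to serine proteases, had 85.3 CPM against 20.2. In each of these 4 the GSK126 day 6 level was above every vehicle library. The nearest to vehicle day 10 were Wfdc1, Isg20, Col20a1, Lgals3, Lrrc51 and Neurl2. Lgals3, the lectin galectin-3, had 67.7 CPM in vehicle day 6, 142 in GSK126 day 6 and 165 in vehicle day 10. Wfdc1 had 1.07, 6.61 and 5.81 CPM in that order.

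Furthest behind among genes moving up were Mir2137, Ephx4, Tmem158, Aldh3a1, Tulp2 and Gm15706. Aldh3a1, an aldehyde dehydrogenase, had 42.2, 27.1 and 91.3 CPM in vehicle on days 3, 6 and 10 and 7.23 in GSK126 day 6, a log2 ratio of -3.66 (-3.82 to -3.50). Tulp2 had 0.564 CPM against 6.76. Ephx4 held 6 counts in GSK126 day 6, which is 3 fragments, and 1760 in vehicle day 10, a log2 ratio of -7.84 (-10.52 to -6.68). Ephx4 was low on day 6 and high on day 10 in both treatments, but on day 3 it was high in vehicle only. Mir2137 and Tmem158 were uneven between libraries in a way that followed neither day nor treatment. Mir2137 held 45208 counts in vehicle day 10 and at most 4 in the other 5 libraries. Tmem158 held 58610 counts in GSK126 day 3 and 44420 in GSK126 day 10, but 148 in GSK126 day 6. Others of the 12 lowest were Aqp2, a water channel, with 1.57 CPM against 11.5, Rarres2, the adipokine chemerin, with 2.07 against 14.6, and Cdh26, a cadherin, with 3.87 against 26.4. Ankrd37 and Selenbp1 completed them, with Gm15706 and Ly6a, and had log2 ratios of -2.81 and -2.59.

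Among genes moving down, those lowest relative to vehicle day 10 were 5430419D17Rik, Aldh1a3, Corin, Figf, Inpp5e and Mki67. Of these, 5430419D17Rik alone was 2-fold or more past day 10, with a log2 ratio of -1.12. Aldh1a3, a retinaldehyde dehydrogenase, had 11.7 CPM in vehicle day 6, 5.65 in vehicle day 10 and 2.90 in GSK126 day 6. Figf, which encodes VEGF-D, had 19.2, 8.81 and 5.78 CPM in that order. Corin and Inpp5e were uneven between libraries. Corin held 572 counts in vehicle day 6 and at most 6 in any other library, so that no ratio of GSK126 day 6 to vehicle day 10 is given. Inpp5e had 125 CPM in vehicle day 6 against 20.3 in GSK126 day 6 and 28.4 in vehicle day 10. C77080, Kif2c, Kif23, Ccnb2, Tpx2 and Cdca3 were nearest, and all but C77080 are genes of cell division. Kif23, a motor of the spindle midzone, had 41.8 CPM in vehicle day 6, 20.2 in GSK126 day 6 and 20.3 in vehicle day 10.

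Furthest behind among genes moving down were Trib3, Slc7a11, Chac1, Atf3, Apobr and Aldh1l2, which were also among the 12 highest in treated day 6 cells. All but Apobr belong to the integrated stress response and amino acid supply, where ATF4 and its partners switch on amino acid transport and synthesis. Trib3, a pseudokinase target of that pathway (mm10 chr2:152337425-152344060), had 2.73, 14.8 and 1.30 CPM in vehicle on days 3, 6 and 10, and 117 in GSK126 day 6. Its log2 ratio was 6.47 (6.13 to 6.87), and GSK126 day 10 was back at 4.67 CPM. Slc7a11, the cystine transporter, had 27.6 CPM against 0.434, and Chac1, which degrades glutathione, had 50.3 against 1.18. Asparagine synthetase (Asns) had 381 against 33.2, and Ddit3, the factor CHOP, had 75.7 against 13.5.

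A list of 24 such genes, made after values had been seen, gave 21 of 23 past the minimum 2-fold or more higher, none lower and a median log2 ratio of 2.09. Vehicle day 6 had a median of 0.98 and GSK126 day 10 of 0.09. Of the 23, 22 were above all 3 vehicle libraries, where 27.2% of all genes were. Ddit4 was the exception, with a log2 ratio of -0.10, and Dnajb9 stayed within 2-fold at 0.43. The list median was thus higher on day 6 than on day 10 in both treatments, and highest in treated day 6 cells. The list includes Trib3, Slc7a11, Chac1, Atf3 and Aldh1l2, which were named above for their ratios. Its counts and median therefore describe the list and give no independent support.

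The letters TGATGNAA, a response element bound by ATF4 and C/EBP factors, were searched on both strands in the same 250 bases. They occurred in 6 of 20 genes of this list with an entry (30%) and in 198 of 8603 genes (2.30%). In bone matrix genes they occurred in 1 of 16, Bglap. Chac1 and Slc7a11 are shown because they were among the largest differences, with matches in capitals. Slc7a11 (chr3:50443614-50443863, minus strand) has matches 66 and 47 bases before the start, 1 on each strand. Chac1 (chr2:119350992-119351241, plus strand) has 1 match 193 bases before it. The sequences are RefSeq's on GRCm38.p6, 5′ to 3′, as above. Neither promoter holds the E2F letters.
Slc7a11: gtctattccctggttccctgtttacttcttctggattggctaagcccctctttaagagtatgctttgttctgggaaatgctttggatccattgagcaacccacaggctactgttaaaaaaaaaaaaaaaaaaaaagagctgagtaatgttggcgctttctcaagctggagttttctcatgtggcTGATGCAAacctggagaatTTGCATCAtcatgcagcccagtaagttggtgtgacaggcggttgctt
Chac1: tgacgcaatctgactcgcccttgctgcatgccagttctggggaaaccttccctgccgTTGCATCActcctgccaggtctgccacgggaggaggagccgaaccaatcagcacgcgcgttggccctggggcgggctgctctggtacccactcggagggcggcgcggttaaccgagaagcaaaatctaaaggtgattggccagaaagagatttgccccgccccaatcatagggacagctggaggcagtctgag

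The remaining genes of the 12 highest were Gpr141, Atp2a3, Cox6a2 and Iqgap2. Atp2a3, a calcium pump of the endoplasmic reticulum, had 48.9 CPM in GSK126 day 6 against 0.910, a log2 ratio of 5.72 (5.32 to 6.21). Gpr141, an orphan receptor, had 6.48 CPM against 0.103 and rested on 5 fragments in vehicle day 10, with a log2 ratio of 5.73 (4.73 to 7.60). Cox6a2, a muscle-type subunit of cytochrome oxidase, had 9.95 against 0.579. Iqgap2, a scaffold protein, had 9.16 against 0.682. Apobr, a receptor for apolipoprotein B48, had 26.5 against 2.01.

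Cholesterol synthesis and immediate early genes stood nearer to vehicle day 6 than to vehicle day 10. Of 20 cholesterol synthesis genes 7 were 2-fold or more higher than vehicle day 10 and none was lower. The list median was 0.90, with 1.41 in vehicle day 6 and 1.83 in vehicle day 3, so treated cells stood between the vehicle days. Sqle, the squalene epoxidase, had 256 CPM in vehicle day 6, 186 in GSK126 day 6 and 73.3 in vehicle day 10. Of 15 immediate early genes 10 were higher and none lower, with a median of 1.18 against 1.07 in vehicle day 6. Fos had 4.43, 8.44 and 1.63 CPM in the same 3 libraries, and 109 in vehicle day 3. Egr1 had 51.0, 58.6 and 16.2 CPM.

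Secreted Wnt antagonists parted in both directions, with 3 of 6 past the minimum higher and 2 lower. Wif1 had 43.2 CPM in GSK126 day 6 against 9.47, a log2 ratio of 2.19. Sfrp2 had 163 against 370 and Dkk2 had 4.39 against 12.1. Frzb had 2.32 CPM, and its vehicle day 10 level rested on 2 fragments, with a log2 ratio of 5.27 (3.92 to 8.87). Dkk1 had 1.05 CPM against 0.186, a log2 ratio of 2.38 (1.46 to 3.70). Frzb and Dkk1 passed the minimum only through GSK126 day 6, where they were high. Among 8 Wnt feedback genes Tcf7 alone passed 2-fold, with 191 CPM against 67.6, and Axin2 had 21.9 against 26.5.

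Interferon-stimulated genes were lower, with 6 of 17 past 2-fold and a median of -0.86. In GSK126 day 6, 14 of the 17 were below all 3 vehicle libraries, where 28.9% of all genes were. Ifi27l2a had 3.26 CPM against 9.60 and Oasl2 had 0.685 against 2.65. Ifit1, Ifit2 and Ifit3 belong to a family with similar copies, and their counts are uncertain to that extent. Xaf1 was the 1 gene higher, with 57.2 CPM against 16.1. Genes of Polycomb repressive complex 2 and the H3K27 demethylases were within 2-fold for 13 of 13, with a median of -0.04. Ezh2, the target of the compound, had 38.8 CPM against 51.7, which checks its RNA and not its activity.

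Most markers of other cell types were below the minimum, with Cebpa, Lyz2 and Tubb3 as exceptions. Among endothelial markers 0 of 4 passed the minimum, with a summed level of 0.101 CPM in GSK126 day 6 and 0.124 in vehicle day 10. Skeletal muscle markers summed to 0.705 and 0.434 CPM with 0 of 5 past it. Only Cebpa of 7 adipocyte markers passed, with sums of 10.3 and 15.7 CPM. Only Lyz2 of 6 blood cell markers passed, with sums of 21.7 and 20.9. Of 4 neuron markers 3 could be assessed, and Map2 could not, because its name was absent or stood on more than 1 row. Of these 3 only Tubb3, a tubulin that is not restricted to neurons, passed, with 46.7 CPM against 23.2. It set a summed level of 46.8 against 23.2, while Rbfox3 and Snap25 had no count in vehicle day 10. The osteoblast genes Col1a1, Runx2, Sp7 and Ibsp were expressed on both sides, as the levels above show. The part of these markers in the other results was not tested.

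H3K27me3 islands gave a readout of the same genes from 24 hours after the first dose, with 1 immunoprecipitation against 1 input per treatment. The authors' deposited list held 34498 islands in vehicle, with a median length of 3400 bases, and 24947 in GSK126, with a median of 5600. Of 8603 genes with a RefSeq start, 130 (1.51%) had an island of the vehicle list over it. Among the 386 such genes 2-fold or more higher in GSK126 day 6 there were 43 (11.1%), and among the 319 lower there were 7 (2.19%). Genes within 2-fold had 80 of 7898 (1.01%). In the GSK126 list the shares were 8.29%, 1.88% and 0.874%. The higher genes were expressed at lower levels in vehicle day 10, with a median of 3.96 CPM against 11.4 for the lower genes and 31.7 for all. At under 5 CPM in vehicle day 10, the vehicle list covered 38 of 207 higher genes (18.4%). It covered 4 of 101 lower genes (3.96%) and 39 of 844 within 2-fold (4.62%). These 3 groups were not matched in level. The 207 higher genes had a median of 0.786 CPM in vehicle day 10, against 2.23 for the 101 lower genes and 2.34 for the 844 within 2-fold. A gene under 1 CPM in vehicle day 10 entered only if GSK126 day 6 reached the minimum, so genes low on both sides were left out. The part of level and of this filter in the island shares was not tested.

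Few of the named genes carried an island over the start. Among those past the minimum there were 5 in the vehicle list, and below it Fbln1, Adipoq, Ptprc and Rbfox3 had one too, with folds from 1.28 to 4.70 in the authors' deposited list. In the authors' deposited list for vehicle, Col9a1 had a fold of immunoprecipitate over input of 2.79, Matn1 of 3.17, Atp2a3 of 2.76, Egr2, an immediate early factor, of 2.43 and Enpp1 of 2.28. All 5 were higher in treated day 6 cells, but Col9a1, Matn1, Atp2a3 and Enpp1 passed the minimum only through that library. In the authors' deposited list for GSK126, Col9a1 alone of these had an island, with a fold of 2.05. No DNA replication, mitosis, stromal or stress response gene past the minimum had an island over its start in the vehicle list, of 20, 20, 16 and 20 with an entry. With 1.51% over all genes, such a count is near the background.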

How the data were processed

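Gene counts are whole numbers per gene and library, deposited by the authors without normalization. All were even in the 6 RNA libraries, so a fragment was taken as 2 counts. The authors' deposited RPKM values divide by coding length and are quoted for Ibsp only. The deposited H3K27me3 island lists hold, in the layout that SICER writes, a fold of immunoprecipitate over input and an adjusted p-value per island. The p-value was not used. Per the submitters' processing notes, TopHat2 2.0.6, HTSeq 0.5.3p9, BWA 0.5.9, SICER 1.1 and CASAVA 1.9 were used with build mm10, with no role stated. The annotation release, counting mode and SICER settings were not given in the sources used here. Per the labels' protocols the TruSeq v2 mRNA kit was used, which does not mark strand, so a gene and its antisense partner cannot be told apart.

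TMM factors came from edgeR 4.0.16 in R 4.3.3 over the 6 RNA libraries, and log2 ratios used a prior count of 2 scaled to library size. Genes needed 1 CPM in either library of a comparison. A call means 2-fold or more. Intervals are exact binomial at 95% (scipy 1.17.1). With 1 library a group no test was made, and edgeR and DESeq2 1.42.0 gave scaling factors only. The ratio formula was checked on simulated counts with known folds and counting error only. That check cannot show the spread between cultures. Of 23358 rows, 6083 were at 0 in both libraries. A further limit is that 26 names stood on 69 rows, and such rows were counted but not named.

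Named genes were the 12 largest and 12 smallest ratios among genes with at least 5 CPM in either library. Also named were, among genes 2-fold apart between vehicle days 6 and 10, the 6 in each direction ranked first toward the far side of day 10, nearest to it and furthest behind it, and members of the gene lists. For this choice 5 CPM was required in either library of those that chose the gene. The comparison, the members and the lists were chosen with earlier results of these data known. RefSeq promoters (GRCm38.p6) were matched by symbol for 8603 of the 11976 genes. A few listed genes enter the counts and medians but are not reported here by name. No per-sample column was left unmapped. Alternatives covered scaling, the prior count, the CPM minimum, the fold and the choice of moving genes. For islands they were chosen after seeing the data.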

Additional observations from a re-analysis of the deposited data

How the results depend on the processing

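Scaling by library size, by DESeq2 size factors or without Rn45s in the totals, and prior counts of 0.5 or 10, kept the counts of genes within 1.5 times of those reported. The CPM minimum and the fold moved them. Of 537 higher and 494 lower genes, a minimum of 5 CPM left 343 and 318, no minimum gave 2116 and 1557, a fold of 1.5 gave 1159 and 1468, and a fold of 4 gave 159 and 48. Distances from vehicle day 10 at 5 CPM were 687 genes (vehicle day 3), 220 (vehicle day 6), 699 (GSK126 day 3), 661 (GSK126 day 6) and 397 (GSK126 day 10). With no minimum they were 3282, 2679, 3406, 3673 and 3085 in the same order. By these counts vehicle day 6 stayed the nearest.

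Among genes higher on vehicle day 10, the share behind was 57.8% at 1.5-fold, and the share past was 2.33% at 4-fold. Among genes lower on day 10, the share behind was 50.4% with no minimum and 54.5% at 4-fold, where the share past was 0%. Choosing the genes by other libraries gave, for those going higher, 25.4% behind (vehicle day 3 to 10), 16.4% behind and 29.7% past (vehicle day 3 to 6), and 13.3% behind and 27.8% past (GSK126 day 3 to 10). For those going lower it gave 19.1% behind, then 16.9% behind and 26.9% past, then 15.0% behind and 9.06% past. The statement that the largest share lay behind therefore holds for the first choice of genes only. Choices that do not use vehicle day 10 also count genes that vehicle did not keep moving the same way, so their shares are not like for like. The cause was not tested.

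An island of the vehicle list within 1000 bases of the start was found at 16.8% of higher genes and 3.44% of all genes. For the GSK126 list the share of higher genes was 11.9% within 1000 bases, with 2.48% of all genes, and 5.44% at a fold of 2 or more, with 0.627% of lower genes and 0.651% of all. List medians kept their sign for 19 of 20 lists. The secreted Wnt antagonists went to -0.87 at 5 CPM, where Frzb and Dkk1, which were higher in GSK126 day 6, dropped out. No paired analysis was possible because each group held 1 library, and no replicate could be left out for the same reason. Depth limits Ostn, Col9a1, Frzb, Ephx4 and Mir2137, which rest on 3 or fewer fragments on 1 side, and Corin, which does so on both.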

Other observations

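The following 4 genes with large differences were present in some libraries and nearly absent from others of either treatment. Ephx4 held 1542, 8 and 1760 counts in vehicle on days 3, 6 and 10, and 18, 6 and 2128 in GSK126. Tmem158 held 144, 184 and 2242 counts in vehicle and 58610, 148 and 44420 in GSK126 on the same days. Mir2137 held 45208 counts in vehicle day 10 and 0 to 4 elsewhere. Corin held 572 counts in vehicle day 6 and 2 to 6 elsewhere. What separates these libraries was not tested.

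Tubb3, a beta tubulin often used as a neuron marker, had 5.82, 13.3 and 23.2 CPM in vehicle on days 3, 6 and 10 and 13.0, 46.7 and 110 in GSK126. It was higher in GSK126 than in vehicle on each day. Of the other neuron markers, Snap25 and Rbfox3 were below 1 CPM in both libraries compared, and Map2 was not assessed.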
